A study of Drosophila melanogaster with 6 samples.

Results

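The RNA content of unperturbed wing imaginal discs was described from the 2 arrays titled as wild type, out of 6 arrays in the study. The discs came from wall-climbing Drosophila melanogaster larvae of the third instar raised at 25 °C, with 30 discs per sample, and 25 ng of total RNA was amplified before labelling. The remaining 4 arrays carry RNAi hairpins and are not compared here. The labels give the wild type discs no RNAi and the background w1118, but the same background field also lists the act5C-Gal4 driver used in the RNAi larvae. A control probe set of the manufacturer, whose target is not named in the annotation used here, read 3.07 and 2.96 on the wild type arrays but between 11.3 and 11.9 on the 4 others, a split that matches the titles. The labels do not say whether the 2 wild type arrays came from separate dissections, so their spread may be technical.

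The wing disc is a folded epithelial sac set aside in the embryo, and it gives rise to the adult wing blade, the hinge and the dorsal thorax, called the notum. During larval life its cells grow and divide while secreted signals, among them Wingless, Decapentaplegic (Dpp) and Hedgehog, set the levels of transcription factors that mark out its regions. Muscle precursor cells lie on the notum epithelium, tracheal branches attach to the disc, and fat body, gut and blood cells lie close to it in the larva.

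A single gene name was paired with 13647 probe sets, which stand for 11982 genes. Each gene was represented by its probe set with the highest mean over the 2 arrays, and the genes were ranked by that mean on the log2 scale, where a step of 1 is a 2-fold difference. Genes at or below 4.93, the 95% point of 27 control probe sets for Bacillus subtilis transcripts, were called background, the top 10% were called abundant, and the rest moderate. By these bounds 1198 genes (10%) were abundant, 7617 (63.6%) moderate and 3167 (26.4%) at background, so that 8815 genes (73.6%) read above background. Over all genes the shares were 10% abundant and 26.4% background, and the median level was 8.31. The counts and medians of each gene list below are to be read against these values. Levels of different probe sets also depend on how well their probes bind, so a higher level means a brighter probe set and not always more transcripts, and the order of near neighbours in the ranking is not resolved.

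The levels fell into separate peaks. Between 4 and 5 lay 1567 genes, between 11 and 12 lay 1707, and between 7 and 8 only 583. The 1198 abundant genes spanned 2.20 log2 units, from 11.92 to 14.12. The genes just inside the abundant band were Glys, UBL3 and sbb, at 11.93, 11.92 and 11.92, and those just outside it were CG6686, Pcd and CG31075, all at 11.92. At the lower bound CG15025, CG13998 and CG43103 lay just above 4.93, and CG43116, Obp19a and CG13694 just below it at 4.93. Genes on either side of a bound thus had nearly equal levels.

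**Figure D1:**
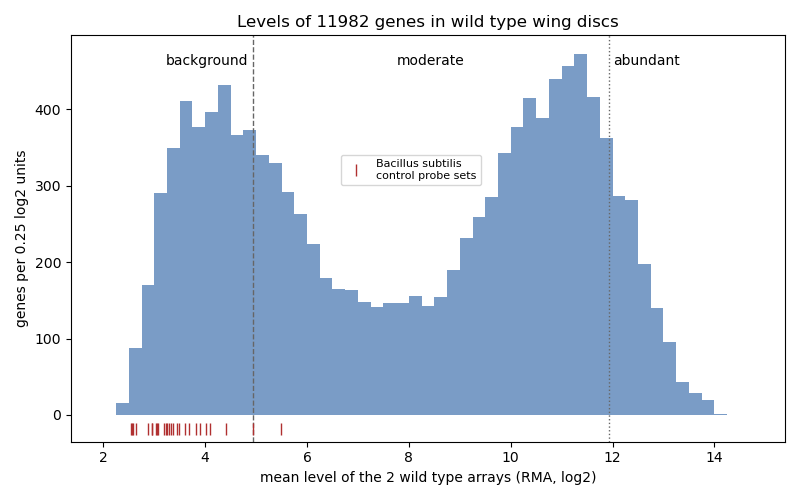
Number of genes (y axis) by mean level of the 2 wild type arrays (x axis, log2, bins of 0.25). The dashed line is the background bound at 4.93, the dotted line the abundant bound at 11.92, and the red ticks are the 27 control probe sets, and the genes form a low peak near 4 to 5 and a high peak near 11 to 12.

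The 2 arrays agreed closely at the top of the ranking and less at its foot. The median difference between them was 0.04 for abundant genes, 0.10 for moderate genes and 0.15 for background genes, and the correlation across genes, which are not independent replicates, was r = 0.995. Both arrays put 11481 genes (95.8%) in the same band. A difference of more than 1 was found for 201 genes (1.68%), of which 141 were higher on array 1 and 60 on array 2.

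Those 201 genes were not spread evenly over the gene lists. Digestive enzymes of the larval gut stood out, with 11 of 37 gut markers more than 1 higher on array 1 and 0 more than 1 higher on array 2. The trypsin gene thetaTry read 9.57 on array 1 and 4.04 on array 2, epsilonTry 10.62 and 6.66, and the serine protease gene Jon65Aiii 11.73 and 9.11. The lipase gene mag read 9.39 and 5.79. Marker sets were fixed for a check of cell types. The summed level of gut markers (5 of 6 measured) was higher on array 1 by 2.35 in log2. That of haemocyte markers (9 of 9) was higher by 0.83, and that of fat body markers (3 of 6) by 0.60. For wing epithelium markers (8 of 10) the difference was -0.07. The other sets lay between -0.24 (muscle precursors) and 0.15 (neurons and glia), with the salivary gland at -0.21. LysX was at background among the gut markers and lz among the haemocyte markers. The gut sum rested mainly on Jon65Aiii. The other gut markers of that set read lower, with Jon25Bi at 6.56 and 5.41 and betaTry at 6.11 and 5.92. Mal-A1 read 5.51 and 5.15, and LysX 4.10 and 4.19. Outside the gut list the largest difference was that of Lectin-galC1, a galactose-binding lectin (10.73 and 5.43), followed by CG32751 (7.95 and 3.04), CG6660 (9.29 and 4.81) and CG17562 (7.82 and 3.50). The cuticle gene Cpr64Ac, which came next, read 6.41 on array 1 and 10.54 on array 2. The fatty acid synthase gene FASN3 (10.43 and 6.49), CG15531 (7.33 and 3.58) and Obp44a (10.16 and 6.45) were, with thetaTry and epsilonTry, the rest of the 10 largest. What set the arrays apart in these genes was not tested. Other lists also held members more than 1 higher on array 1. Among them were Sox factors (2 of 8), eye disc genes (2 of 13), and neuronal and glial markers (3 of 24). Cytochromes P450 (7 of 81) and odorant-binding proteins (4 of 48) did so too. None of these lists had a member more than 1 higher on array 2. Cuticle proteins had 4 of 106 higher on array 1 and 2 higher on array 2. In 57 of 73 gene lists no member differed by more than 1.

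**Figure D2:**
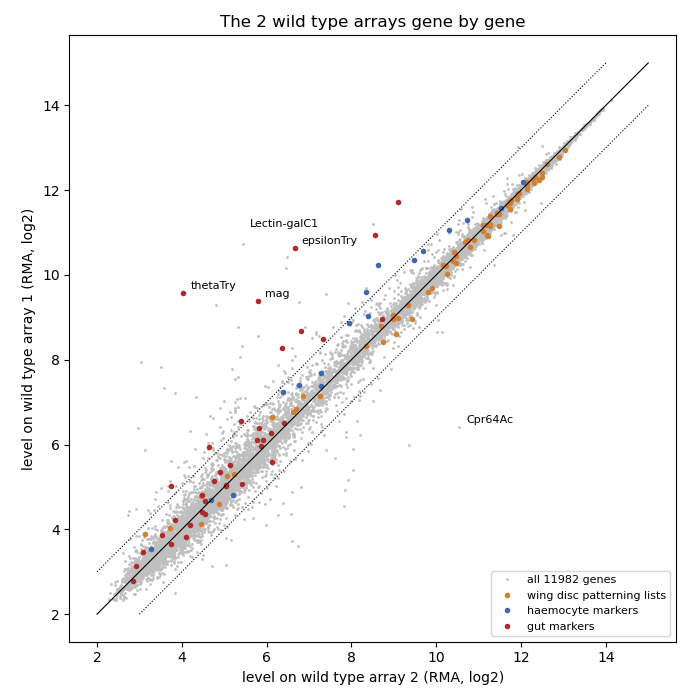
Level of each gene on wild type array 1 (y axis, log2) against array 2 (x axis, log2), with equality as a solid line and a difference of 1 as dotted lines. The patterning genes (orange) lie along equality, while thetaTry, epsilonTry and mag among the gut markers (red) lie well above it and Cpr64Ac below it.

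The machinery of protein synthesis headed the ranking. Ribosomal protein genes filled 20 of the 25 highest places, 26 of the highest 50 and 28 of the highest 100. The highest gene was RpL15, at 14.13 and 14.12 on the 2 arrays, and RpS21 (13.93), RpLP2 (13.92) and RpL40 (13.91), which encodes a ribosomal protein fused to ubiquitin, came next. RpL36A, RpS26, RpL41, RpS20, RpS29, RpL32, RpS28b, RpL23, RpS15, RpS18, RpLP1, RpL39, RpS12, RpL3, RpS27A and RpS7 followed between 13.89 and 13.70. The other 5 of the highest 25 were tsr, the actin-severing protein cofilin (13.91), betaTub56D, the general beta-tubulin (13.82), Sumo, a protein modifier (13.78), Rack1, a scaffold on the small ribosomal subunit (13.78), and eIF1, an initiation factor (13.74). These 25 genes lay within 0.42 of each other.

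Of 38 cytosolic ribosomal protein genes with a probe set of their own, 30 were abundant, 7 moderate and 1 at background, with a median of 13.71. The low members were second copies, such as RpL10Aa at 3.72, RpS10a at 5.17 and RpS28-like at 5.26. Among 48 translation factors 29 were abundant (median 12.49), led by eIF1, eEF1delta (13.61), eEF5 (13.58) and eEF1gamma (13.44), and the lowest were eIF3f2 (3.14) and eIF4E7 (3.55). Nucleolar proteins, which build ribosomes, had 11 of 18 abundant and 0 at background, with the snoRNP proteins NHP2 (13.14) and Nop60B (13.00), CG1542 (12.86) and the GTPase Ns1 (12.48) highest and Nnp-1 (10.91) and wcd (10.89) lowest. The 32 aminoacyl-tRNA synthetases were all above background but mostly moderate (7 abundant, median 11.39), and the lowest of them were the mitochondrial enzymes IleRS-m (8.65) and GluRS-m (8.49), against 12.56 for AsnRS, 12.39 for LysRS, 12.35 for ThrRS and 12.18 for ArgRS.

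Protein folding, secretion and turnover were nearly as prominent. In the endoplasmic reticulum list 15 of 19 genes were abundant (median 12.47), including the cargo receptor bai (13.30) and the translocon subunits Sec61gamma (13.21) and Sec61beta (13.08), with twr (13.11) between them. Spase22-23, a signal peptidase subunit, read 11.05. Pdi, a disulfide isomerase, was the exception in that list, at 3.36 on each array. Chaperones had 14 of 20 members abundant, with the Hsp70 relatives Hsc70-3 at 13.48 and Hsc70-4 at 13.44 and the cytosolic chaperonin subunits CCT1 at 13.21 and CCT5 at 13.05. Of 3 stress-induced heat shock genes measured out of 13 listed, the small heat shock genes Hsp27 (13.49) and Hsp26 (12.72) were abundant and Hsp68 read 10.95 on array 1 and 11.82 on array 2. Proteasome subunits were split, with 24 of 40 abundant (Prosalpha2 at 13.27, Prosalpha6 at 13.23, Prosbeta3 at 13.21, Prosbeta7 at 13.13) and 10 at background. All 7 RNA polymerase II subunits measured were above background and 6 abundant, from Polr2K at 13.14, Polr2J at 12.95, Polr2L at 12.76 and Polr2E at 12.72 to Polr2H at 12.03 and Polr2M at 10.50.

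Genes of energy metabolism were abundant more often than the 10% of all genes. The shares were 50.6% for oxidative phosphorylation subunits, 29.0% for mitochondrial ribosomal proteins and 36.4% for glycolytic enzymes. Of 79 oxidative phosphorylation subunits 40 were abundant and 16 at background, with a median of 11.97. ATPsynC, a subunit of the ATP synthase ring, read 13.49, blw, the alpha subunit of the same enzyme, 13.42, ATPsynD 13.31 and ATPsynO 13.28, and the lowest of the list were ND-B8 and COX6CL, both at 3.08. All 69 mitochondrial ribosomal protein genes were above background, within a narrow range from 12.91 (mRpS11), 12.89 (mRpS7), 12.77 (mRpS21) and 12.51 (mRpL49) to 9.94 (mRpL35) and 9.36 (mRpS18C). Of 11 glycolytic enzymes 4 were abundant, namely Eno (12.97), Tpi (12.21), Ald1 (12.14) and Gapdh1 (11.95), while the hexokinase gene Hex-C stood at 5.71 and Pglym87 at 4.50 and 4.49. The proton pump of acid organelles, the V-ATPase, was split into general and low members, with 10 of 31 subunits abundant (VhaM9.7-b at 13.03, Vha26 at 12.92, Vha16-1 at 12.81, Vha13 at 12.74) and 10 at background (Vha100-3 at 3.39, Vha16-5 at 3.14).

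**Figure D3:**
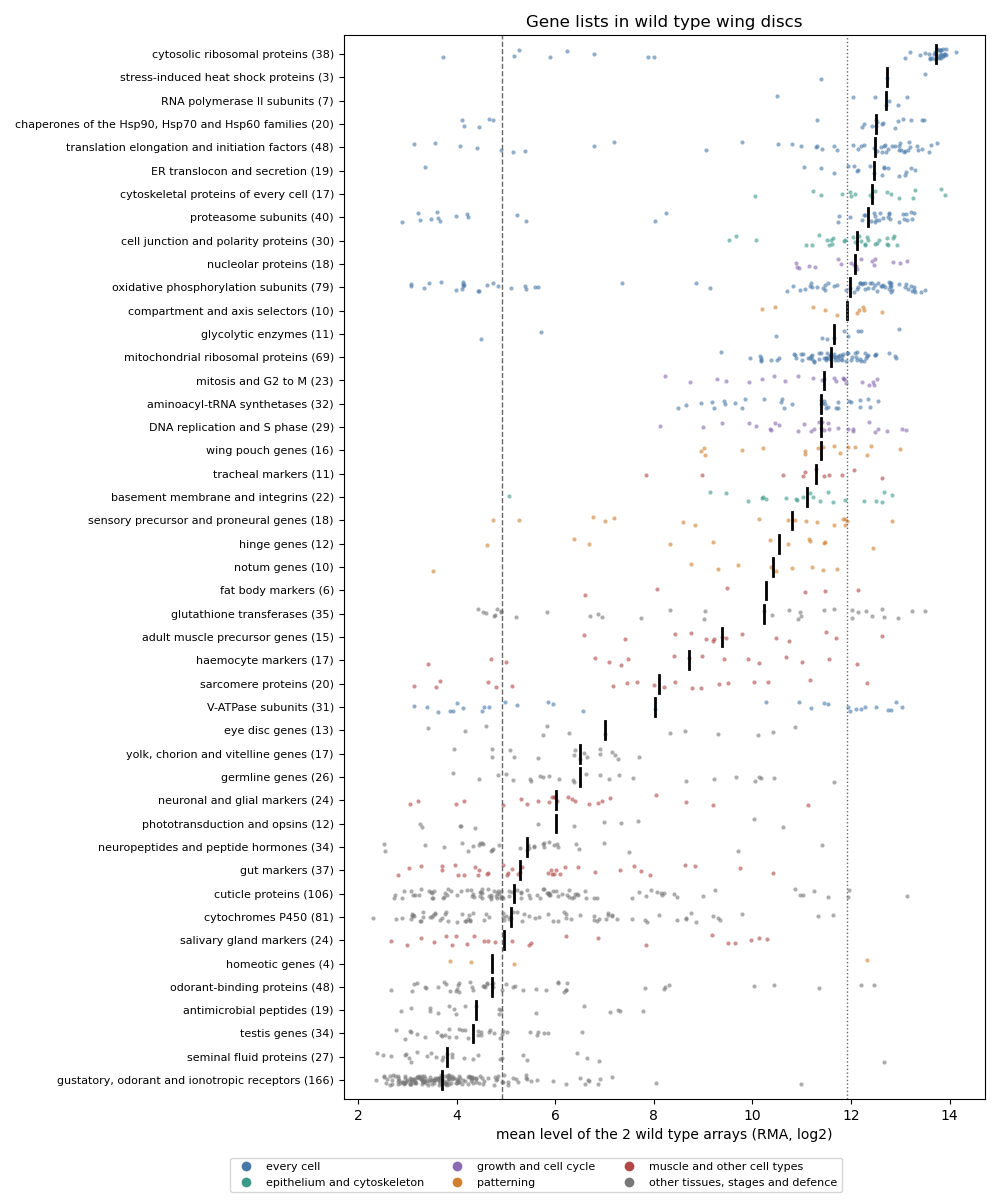
Mean level of each member (dots, x axis, log2) in 45 gene lists (y axis, number of genes measured in brackets) ordered by their median (black bar), with the background bound dashed and the abundant bound dotted. Ribosomal proteins lie at the top around 13.71, 5 of the 6 patterning lists have medians between 10.43 and 11.92, and chemosensory receptors lie at the bottom around 3.71. The proteasome, oxidative phosphorylation and V-ATPase lists each hold members at background.

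Genes of epithelial architecture were similarly high. Among 30 junction and polarity genes 17 were abundant, 13 moderate and 0 at background, with a median of 12.12. The highest were components of the septate junction, the barrier seal of insect epithelia, namely the claudin genes kune (12.94) and sinu (12.88), Lac (12.85) and the Na/K-ATPase subunit nrv2 (12.76). The planar polarity genes Vang (12.20) and stan (12.04) were abundant too. The lowest were adherens junction genes, cno at 9.52 and baz, the Par-3 protein, at 9.66, and shg, the E-cadherin gene, read 10.06.

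Of 17 cytoskeletal genes 13 were abundant and 0 at background, and after tsr and betaTub56D came chic, the profilin gene (13.30), and the dynein light chain gene ctp (13.25), while the filamin gene cher (11.22) and alphaTub84D (10.05) were lowest. Laminin genes led the basement membrane list, where 5 of 22 genes were abundant, with LanA at 12.83, LanB2 at 12.62 and LanB1 at 12.25, beside the papilin gene Ppn at 12.67 and the integrin adaptor gene stck at 12.51. Collagen IV was lower and less even between the arrays. Col4a1 read 11.47 and 10.87, vkg 10.55 and 9.99, and SPARC, a collagen-binding protein, 10.43 and 9.96, each higher on array 1, as were the haemocyte and fat body markers. Whether other cells carried that RNA into the samples was not tested. The integrin gene Itgbn (9.15) and nidogen (Ndg, 5.06) were the lowest of the list.

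Gap junction genes, the innexins, separated cleanly. Inx3 (13.25), Inx2 (13.05) and ogre (12.83) were abundant, whereas Inx7 and Inx6 read 5.99 and 5.14 and the germline innexin zpg (3.93) and Inx5 (3.50) were at background.

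Proliferation genes were all above background. None of the 29 DNA replication genes and none of the 23 mitosis genes was at background, with 9 and 5 abundant and medians of 11.39 and 11.46. The nucleotide enzyme gene dUTPase (13.11), the sliding clamp PCNA (13.04), RnrL (12.73), a ribonucleotide reductase subunit, and RPA1 (12.54) were the highest of the replication genes. Subunits of the origin recognition complex were lower, from Orc5 at 10.37 to Orc1 at 9.01, and PolA1 was lowest at 8.12. In the mitosis list the checkpoint genes Bub3 (12.52) and mad2 (12.47), cyclin B (CycB, 12.44) and borr (12.36) were highest. The germline phosphatase gene twe (8.74) and cid, the centromeric histone gene (8.23), were lowest.

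Patterning genes of the wing pouch, the region that forms the blade, ranged from moderate to abundant. All 16 measured were above background and 5 abundant, with a median of 11.38. The wing selector gene vg read 12.94 and 13.05, bi, a T-box gene also known as omb, 12.31 and 12.50, the cadherin gene ds 12.32 and 12.32, and the zinc finger gene salm 12.02 and 12.14. Lowest were bs (9.02) and rn (8.96). Each of these genes differed between the arrays by less than 0.2.

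Hinge and notum genes were measured at moderate levels. In the hinge list 10 of 12 genes were moderate, tsh was abundant at 12.45, and Dr (11.47), Sox15 (11.44) and the T-box genes Doc1, Doc2 and Doc3 (11.17, 10.73 and 10.35) were among the higher members, against Lim1 at 6.38 and dan at 4.62. In the notum list 9 of 10 genes were moderate. The Iroquois genes ara (11.72), mirr (11.44) and caup (11.21) were highest, followed by chm (10.79), whereas the GATA gene pnr read 9.70, Poxn 8.75 and Sox21b 3.51. Fewer expressing cells and less RNA per cell cannot be told apart in such samples.

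Genes that divide the disc into compartments were higher, with 5 of 10 abundant and 0 at background. They were the Notch-modifying glycosyltransferase gene fng (12.62), the posterior selector en (12.27), the dorsal selector ap (12.24), the Hedgehog effector ci (12.17), which is anterior, and Ssdp (12.12), a cofactor of the ap protein. The en paralog inv was lowest at 10.19, after caps at 10.46. Of 4 homeotic genes measured, Antp, which is active in the thorax, was abundant at 12.32, Scr lay just above background at 5.17, and the head genes pb (4.29) and Dfd (3.87) were at background.

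Sense organ genes were spread over the scale. The repressor emc (12.83) was the highest, and the Notch-responsive genes E(spl)mbeta-HLH (11.91), E(spl)m7-HLH (11.88) and E(spl)m3-HLH (11.85) and the partner factor da (11.87) followed. The proneural genes sc and ac read 11.32 and 10.73, and later precursor genes were lower (neur 10.14, phyl 8.83, sens 8.59, and ase 7.13 and 7.27). The proneural genes of other organs were low as well (ato 7.14 and 6.86, amos 5.27, l(1)sc 4.73). Other Notch-responsive genes lay lower than those named above, with E(spl)mdelta-HLH at 11.08 and E(spl)m5-HLH at 6.77. Of the 18 genes 16 were moderate.

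Signalling genes were examined by role. Among 22 ligand genes the median was 8.49, near the 8.31 of all genes, and 5 were at background. Among 19 receptor genes the median was 10.82 and 0 were at background, and among 78 genes that act inside the cell the median was 11.14 and 1 was at background. Genes of feedback or target type had a median of 11.44 over 19 genes. Several pathways are covered in part, since only 9 of 28 listed Wingless genes and 13 of 23 Notch genes had a probe set with a single name.

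Dpp ligand genes spanned the whole scale. The gene dpp read 11.04 and 11.11, its relative gbb 12.34 and 12.31, and scw, known from the embryo, 3.29 and 3.62. All 5 receptor genes in the list were above background, led by tkv (12.58), with sax (11.59), wit (11.59), put (11.48) and babo (10.43). Of the listed genes that act inside the cell, Smox (11.98 and 12.01) and Mad (11.12) were higher than Med (8.20). The feedback inhibitor Dad was 11.44, and the target genes vg, bi, salm and salr lay between 12.99 and 11.44. Extracellular modulators included tok (12.19) and tld (10.35), proteases of one family, and magu (11.12), cv (11.33), cv-2 (7.72) and tsg (5.54).

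Hedgehog components were all above background. The ligand gene hh, made in posterior cells, read 11.43, and disp (12.13) and shf (12.80), which release and spread it, were higher. The co-receptor genes ihog (12.19) and boi (12.11) and the transducer smo (11.61) read brighter than ptc, the receptor and a target of the pathway, at 8.92. Inside the cell ci (12.17) was the highest, and slmb, rdx, cos and Su(fu) read 11.27, 11.17, 10.77 and 10.75.

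For Wingless signalling, Wnt6 read 10.08, the Wnt cargo receptor wls 12.36 and the acyltransferase por 11.22. The glypican gene dlp (12.04) and the kinase gene gish (12.71) were abundant, as was the feedback gene nkd at 11.99, while Axn was 11.68 and the secreted regulators Notum and Swim were 9.44 and 7.78. In the Notch list fng was highest, followed by gro (12.37), dx (12.28) and O-fut1 (12.25), and H (10.46) and neur (10.14) were lowest. Of 6 target genes of the E(spl) complex in the list, 5 lay between 11.08 and 11.91, and E(spl)m5-HLH read 6.77.

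The EGF receptor gene Egfr read 11.22. Its ligand genes were spi (12.46), Krn (11.27) and grk (8.86), which acts in oogenesis, and the ligand trafficking gene S was 11.68. The adaptor drk (12.69), the repressor aop (12.32) and the kinase Dsor1 (11.98) were abundant, and the inhibitors aos, sty and kek1 read 11.09, 10.93 and 9.24. All 19 Hippo genes were above background. Outside vg, the highest were Zyx (12.65), dco (12.43), ex (12.33) and ds (12.32). The kinase genes wts and hpo read 11.41 and 10.74, and yki, the growth co-activator they restrain, lay at 11 on each array, while kibra (10.06) and jub (9.67) were lowest.

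**Figure D4:**
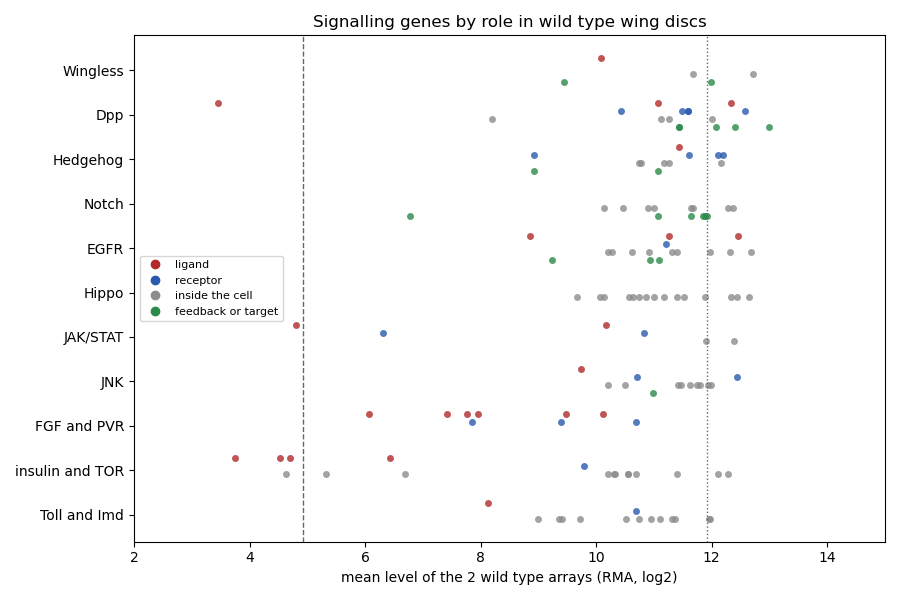
Mean level (x axis, log2) of signalling genes in 11 pathways (y axis), coloured by role, with the background bound dashed and the abundant bound dotted. Ligands (red) reach from 3.45 to 12.46, and receptors (blue) and genes inside the cell (grey) mostly lie above 9.

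The insulin-like ligand genes measured were low. Ilp2, Ilp5 and Ilp7 were at background (3.74, 4.52 and 4.69), and Ilp8 read 6.77 and 6.08. The receptor InR was 9.80, its substrate chico 10.21, and S6k (12.28), Akt (12.12), the kinase gene Pdk1 (11.39) and the secreted insulin antagonist ImpL2 (11.01) were the highest of 18 insulin and TOR genes, among which raptor (5.33) and REPTOR (6.69) were low and the transporter slif (4.62) was at background. In JAK/STAT signalling Stat92E (12.38) was the highest of 6 genes and Ptp61F read 11.90. Its receptor dome was 10.82, its decoy-like relative et 6.30, and the ligand genes upd1 and upd2 were 10.17 and 4.80.

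JNK components were all above background, with the receptor wgn (12.44), bsk, the kinase itself (11.98), and kay (11.93) abundant, the kinase gene slpr next at 11.80, and the ligand egr (9.74) and Traf4 (10.20) lowest. FGF and PDGF/VEGF-type ligands lay between 10.12 (Pvf2) and 6.07 (Pvf3), with pyr at 9.47, and their receptors were Pvr (10.68), htl (9.39) and btl (7.84). In the Toll and Imd list all 15 genes were above background, with cact (11.96) and key (11.95) highest, the transcription factor gene Dif at 11.31, and Fadd (9.06 and 8.94) and the ligand gene spz (8.13) lowest.

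Genes inducible by the moulting hormone ecdysone included some of the highest of all. ImpE2 ranked 27th of all genes with 13.67 and 13.70, ImpE3 read 13.11 and ImpE1 12.68. The ImpE1 level is the highest of 4 probe sets, the lowest of which read 3.67. These ImpE genes were first isolated as ecdysone-inducible genes in imaginal discs. The early response gene br read 13.17. The receptor genes EcR and usp were 10.88 and 11.39, and the hormone's synthesis enzymes, which act in the ring gland, read 7.34 (spo), 7.15 (sad), 6.77 (dib) and 6.10 (shd, the peripheral enzyme). The late gene Eip93F was the lowest of 23, at 6.42 on array 1 and 4.89 on array 2.

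The 20 nuclear receptors measured included 1 abundant gene, Hr78 (11.97). Next came Hr39 (11.85 and 11.95), usp (11.25 and 11.52) and Hr4 (10.74 and 11.09). At background were 4 genes, namely Hr83 (4.62), Hr51 (3.46), tll (3.37) and dsf (2.99). Other transcription factor families were also spread over the scale. The T-box genes byn and org-1 were at background (3.59 and 4.60) beside bi at 12.40, and 5 of 9 Pax genes were at background (ey, gsb, prd, gsb-n and sv), with eyg highest at 9.31, before Poxn, Poxm (6.04) and toy (6.59 and 5.08). Of 8 Sox genes Sox15 was highest, Sox14 read 9.94, Sox102F 9.63 and Sox100B 7.19, and Sox21a (4.30) and Sox21b were at background. SoxN (7.38 and 5.96) and D (6.31 and 4.19) were more than 1 higher on array 1. Among GATA genes grn (11.65) and GATAd (11.63) exceeded pnr, srp (7.48) and GATAe (5.78).

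Chromatin regulators of the Polycomb and Trithorax groups were all above background, with 27 of 33 moderate. The histone chaperone gene Caf1-55 (12.97), kis (12.75) and the Brahma complex genes Bap60 (12.55) and Snr1 (12.33) were highest, and esc (9.61) and its paralog escl (7.08) were lowest. Kdm5, which encodes the H3K4 demethylase that the study's RNAi targets, read 10.42 and 10.33. Cell death genes were moderate or at background, with the caspase genes Dcp-1 (11.63) and Dronc (11.60), Dredd (11.37) and the inhibitor Diap2 (11.30) highest, against the killer genes grim (3.43) and skl (4.50). The sex determination gene Sxl (12.39) and the dosage compensation gene msl-1 (11.85), followed by tra (11.77) and Clamp (11.56), led a list of 12 genes with 0 at background, in which msl-2 (9.96) and msl-3 (9.85) were lowest. Of 9 clock genes cwo (11.25), cyc (11.06), vri (11.03) and Pdp1 (8.79) were highest, and tim (4.84), cry (4.73) and Clk (3.41) were at background.

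Muscle precursors were represented at moderate levels. In that list 14 of 15 genes were moderate, with the adhesion genes hbs (12.63) and rst (11.49), blow (11.69) and lms (10.75) highest, and nau, the MyoD-type factor gene, lowest at 6.58 after ths at 7.42. The defining markers twi (9.66 and 9.90), zfh1 (10.40 and 10.57), htl (9.34 and 9.43) and Him (8.92 and 9.49) were all above background. Sarcomere genes were lower than the muscle precursor genes, with a median of 8.11 over 20 genes and 5 (25%) at background. Both values lay near those of all genes, 8.31 and 26.4%. Zasp52 (12.32), TpnC73F (11.16), Zasp66 (10.31) and Act87E (10.03) were the highest, and TpnC4 (3.58) and TpnC41C (3.14) the lowest.

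Genes listed as markers of other larval tissues read at different levels, and which cells in the samples carried their RNA was not tested. All 11 tracheal markers were above background, with the chitin synthase gene kkv at 12.62, serp at 12.06, Gasp at 11.82 and vvl at 11.56, against sprt at 8.98 and the tracheal FGF receptor btl at 7.84. Of 17 haemocyte markers 15 were above background, headed by the engulfment receptor genes crq (12.11) and drpr (11.55), He (11.28 and 10.73) and Pxn (10.68), while gcm2 (4.69) and lz (3.42) were at background. The prophenoloxidase genes PPO2 (10.23 and 8.62) and PPO1 (9.59 and 8.34) were higher on array 1. The 6 fat body genes were above background, with Lsp2, a larval storage protein, at 12.36 and 11.94, Fbp2 at 11.78 and 11.16, Fbp1 at 11.56 and 10.59 and apolpp at 9.87 and 9.08, against Lsd-1 at 8.20 and 7.92 and Apoltp at 6.93 and 6.29. Each of the 6 fat body genes was higher on array 1.

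Salivary gland genes were divided. The glue genes Sgs7 (10.30), Sgs8 (10.14), Sgs3 (9.98) and Sgs5 (9.64) were moderate, whereas 12 of 24 genes on the list were at background, down to Eig71Ei (2.99) and ng1 (2.67). Gut markers had a median of 5.29, with 13 of 37 at background. After Jon65Aiii came Jon65Aiv (10.95 and 8.56), Mal-A5 (8.96 and 8.72) and epsilonTry, and the lowest were zetaTry (3.03) and LysP (2.82). Neuronal and glial genes were mostly low, with a median of 6.02 and 4 of 24 at background, and elav stood above the others at 11.21 and 11.05, before futsch (9.21), CadN (8.66) and moody (8.05), against Syn (3.23) and Gad1 (3.05).

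The lists of adult chemosensory receptors, seminal fluid proteins and testis genes each had most members at background. Of 166 gustatory, odorant and ionotropic receptor genes 143 were at background, against 26.4% of all genes, and none was abundant. The highest was Or43b, at 10.95 and 11.03, with the next, Or65c, Gr39a and Or65b, at 8.04, 7.15 and 6.90 and the lowest, Gr36b and Or67d, at 2.53 and 2.37. Seminal fluid genes had 21 of 27 at background, with Acp95EF (12.68) far above Acp32CD (6.88), Acp98AB (6.64) and antr (6.45), and Acp53C14a (2.51) and Acp76A (2.40) the lowest. In the testis list 26 of 34 genes were at background and the highest, janB, read 6.53, followed by sa (5.86), fzo (5.77) and tomb (5.65), against w-cup (2.94) and S-Lap8 (2.76).

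Germline genes were less uniform. Of 26 genes 23 were moderate, and the piRNA pathway genes armi (11.65), vret (10.44), zuc (10.18) and tapas (10.14) were the highest, whereas vas (4.45) and zpg were at background. Of 17 yolk and eggshell genes 14 were moderate and 3 (17.6%) at background, against 26.4% of all genes. Their median was 6.51, below the 8.31 of all genes. They ran from 7.70 (Vm34Ca), 7.28 (Yp1), 7.22 (Cp15) and 7.15 (Vm32E) to 4.72 (Vm26Ac) and 3.96 (fs(1)N). Antimicrobial peptide genes had 13 of 19 at background, and the highest were Drsl5 (7.78), Def (7.32), Drs (7.28) and Drsl2 (7.12), against BomS2 (3.08) and AttD (2.87). Opsin and phototransduction genes had 5 of 12 at background, led by Galphaq (10.62) and rdgA (10.02), before chp (7.69) and Arr2 (7.33), with Arr1 (3.29) and rdgC (3.26) lowest.

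Eye disc genes were mixed. The genes dac (10.87), eya (10.41), svp (10.11) and so (9.29) were moderate, and ey (4.18) and lz were at background. Neuropeptide genes had 15 of 34 at background, and ITP (11.42) and ETH (9.70), before Akh (7.50) and Nplp4 (6.99), stood above them, with sNPF (2.55) and Dh44 (2.52) at the foot of the list.

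Cuticle protein, odorant-binding protein and serpin genes were abundant in 2.83%, 4.17% and 11.1% of cases, against 10% of all genes. At background were 46.2%, 56.25% and 44.4% of them, against 26.4% of all genes. Of 106 cuticle protein genes 49 were at background and 3 abundant, namely Cpr49Ac (13.13), Cpr64Aa (11.96) and Cpr49Ag (11.93), followed by Cpr78E (11.52), and TwdlB (2.75) and Cpr50Ca (2.73) were lowest. Of 48 odorant-binding protein genes 27 were at background, yet Obp99b read 13.01 and 11.92 and Obp56a 12.38 and 12.01, before Obp99a (11.34) and Obp56d (10.44), with Obp83b (3.09) and Obp56f (2.68) at the foot. Serpins included Spn43Aa (13.36), Spn27A (12.61), Spn88Ea (12.30) and Spn77Ba (11.76) beside 12 of 27 genes at background, such as Spn28F (2.84) and Spn38F (2.74).

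Among glutathione transferases, which are detoxification enzymes, 10 of 35 were abundant, including GstD1 (13.50), GstO3 (13.23), GstO2 (12.95) and GstE12 (12.67), against GstD8 (4.54) and GstD5 (4.42). None of 81 cytochrome P450 genes was abundant, and 34 were at background. Cyp4e2 (11.64) and Cyp310a1 (11.33) were the highest of them, before Cyp6u1 (9.79) and Cyp301a1 (9.34), and Cyp4d21 was the lowest gene of the whole ranking at 2.30, after Cyp313a3 at 2.78 within the family. Cyp4g1, an enzyme of hydrocarbon synthesis, read 9.56 on array 1 and 7.40 on array 2.

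Cuticle-associated Osiris genes had 17 of 24 members at background, with Osi2 (9.07) and Osi14 (8.60) highest, then Osi24 (6.35) and Osi9 (5.92), and Osi12 (2.69) and Osi6 (2.68) lowest. The pickpocket channel genes had 16 of 27 at background, with ppk8 (9.34), ppk29 (8.88), ppk19 (7.88) and ppk28 (7.70) highest and ppk10 (3.16) and ppk20 (3.07) lowest. Tetraspanins were mostly moderate (26 of 33), with Tsp42Ee at 12.60, Tsp42Ea at 11.34, Tsp97E at 11.26 and Tsp42Ef at 11.11, against Tsp33B (3.88) and Tsp42A (3.72). In the yellow family yellow-e2 (11.11), yellow-e3 (9.77), yellow-b (8.77) and yellow-f (8.73) were highest, and yellow-g2 (4.49) and the pigment gene y itself (4.05) were at background, as was the pigment gene t (3.56).

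Families with a general and a tissue-restricted member set forms of the same protein from different tissues side by side. In 23 of 23 families with both kinds measured, the general member was the higher. Of 24 general genes 20 were abundant and 0 at background, with a median of 12.62, whereas of 38 restricted genes 1 was abundant and 20 at background, with a median of 4.73. The families were chosen for this known division, and related probe sets can read each other's transcripts. A restricted gene at background has only an upper limit, so the size of the gap to its general relative is not given and such gaps have no order.

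The proteasome showed the contrast in 8 families. Prosalpha3 read 12.48 against 2.89 for its testis form Prosalpha3T, and Prosalpha6 read 13.23 against 3.66 for Prosalpha6T. Prosalpha4 was at 11.75, with Prosalpha4T2 at 4.21 and Prosalpha4T1 at 3.26. Prosbeta5 (12.97) exceeded Prosbeta5R2 (3.62) and Prosbeta5R1 (3.61), Prosbeta4 (12.64) exceeded Prosbeta4R2 (4.24) and Prosbeta4R1 (3.22), and Prosbeta2 (13.06) exceeded Prosbeta2R1 (5.40) and Prosbeta2R2 (3.98). The regulatory subunits Rpt4 (12.58) and Rpt3 (12.47) were set against Rpt4R (5.22) and Rpt3R (8.24). These restricted genes account for 9 of the 10 proteasome genes at background.

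Cytochrome c oxidase gave the same picture. COX4 (13.08) was above COX4L (5.39), COX5B (12.45) above COX5BL (7.35), levy (12.25) above COX6AL2 (4.12) and COX6AL (3.99), and COX7A (13.22) above COX7AL2 (5.10) and COX7AL (4.73). RpL10Ab (13.68) was abundant, whereas its germline copy RpL10Aa (3.72) was at background. Hsc70-4 stood at 13.44 against 4.73 for Hsc70-1 and 4.46 for Hsc70-2, and Hsp60A at 12.23 against 4.66, 4.15 and 4.10 for Hsp60B, Hsp60C and Hsp60D. Pglym78 was at 11.51 and Pglym87 at 4.50.

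In the remaining families every restricted member except betaTub85D was above background. The cap-binding gene eIF4E1 read 12.66, against 7.19 for eIF4E5, 6.78 for eIF4E6, 5.38 for eIF4E4 and 5.15 for eIF4E3. Ntf-2 (12.42) exceeded Ntf-2r (6.45), and Mlc-c (12.96) exceeded the muscle gene Mlc1 (8.96). The subunits nrv2 and nrv1 (12.76 and 11.62) exceeded the neural nrv3 (6.04), which read 6.83 on array 1 and 5.26 on array 2. Among alpha-tubulins alphaTub84D (10.05) was above alphaTub85E (7.07) and alphaTub67C (6.03). The general member exceeded the highest restricted one by 0.95 in the eIF4G family, with eIF4G1 at 12.60 and eIF4G2 at 11.65, and by 0.95 in the beta-tubulin family, with betaTub56D at 13.82 and betaTub60D at 12.87. The gene betaTub60D was the only restricted gene that was abundant, while betaTub97EF was 10.03 and betaTub85D, the testis tubulin, 4.44.

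**Figure D5:**
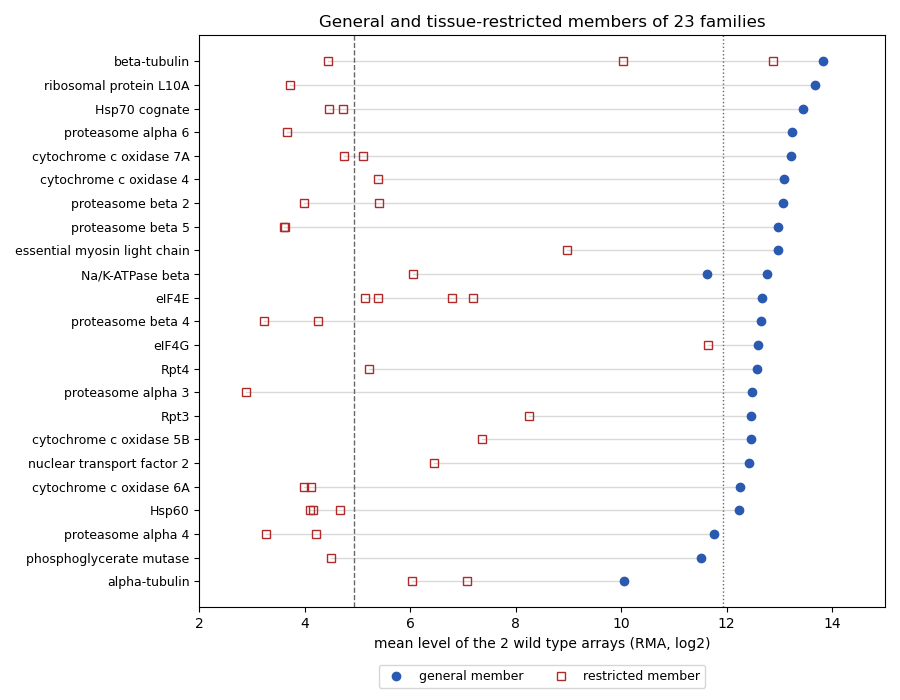
Mean level (x axis, log2) of general members (filled circles) and tissue-restricted members (open squares) of 23 families (y axis), with the background bound dashed and the abundant bound dotted. General members lie to the right in each family, eIF4G and beta-tubulin have a restricted member close to the general one, and restricted members left of the dashed line are not above background.

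Genes known by a CG number alone were uneven across the bands. They made up 18.1% of the abundant band (217 genes), 41.2% of the moderate band (3135 genes) and 58.6% of the background band (1857 genes). The highest were CG2852 (13.58, rank 40), CG6891 (13.48), CG6770 (13.47), CG5953 (13.25) and CG15019 (13.24), followed by CG15012, CG42394, CG5885, CG3226 and CG7675 between 13.19 and 13.10. No role is given to them by the files. Of 77 long non-coding RNAs 3 were abundant, 38 moderate and 36 at background. Over all genes 10% were abundant and 26.4% at background. The 3 abundant ones were lncRNA:CR42862 (13.20), Uhg4 (12.88), a host gene of small nucleolar RNAs, and lncRNA:CR33938 (12.25).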

How the data were processed

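Whole wing discs were profiled on expression arrays, 6 in all. The values deposited by the authors are on the log2 scale, 1 per probe set and array, and the submitters' processing notes name RMA (robust multi-array averaging) as their source without a version. RMA sets all arrays to 1 shared distribution, so a change in total RNA per cell is not visible. The table has 18952 probe sets, of which 183 are controls, and array ranges run from 2.08 to 14.3. Names came from the platform's annotation, updated through RefSeq's genes for Release 6 plus ISO1 MT, which held the symbols of 13550 of 13647 single-name probe sets.

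The 2 wild type arrays, assigned by title, were ranked in Python 3.11.15 with pandas 2.3.3 and numpy 2.4.6. No groups were compared and no test was run. The genes and lists were chosen, and some lists trimmed or added, with earlier results of these data known. Genes named are the 25 highest, the 4 highest and 2 lowest of each list, pathway members by role, the paralog families, those next to the bounds, the 10 that differed most between the arrays and the 10 highest known by a CG number. A few others were named after their values were seen. The ranking code was run on simulated data of 2000 genes, where 100% were put in the right band. The simulated levels left gaps around both bounds, so the run cannot tell how well real genes near a bound are placed. Alternatives changed the bounds, the probe set taken, the scaling and the arrays used. An array gives no read depth, so the number of arrays limits the precision.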

Additional observations from a re-analysis of the deposited data

Results flagged for a closer look

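Probe sets outside the ranking also carried signal in wild type discs. Of 4720 probe sets with no gene name in the annotation, 2407 (51.0%) read above the background bound and 269 were in the abundant range, the highest at 14.17, above RpL15. Of 402 probe sets with several gene names, 284 (70.6%) read above background and 38 were abundant. The bound is the 95% point of 27 Bacillus subtilis control probe sets. The genes behind these probe sets are not named here.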

How the results depend on the processing

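The bands are set by their bounds. With the abundant band as the top 5% or top 20% of genes it held 599 or 2396 genes in place of 1198, and the lists with most members abundant numbered 6 or 25 in place of 11. Lists with most members at background numbered 9, but 15 with the highest Bacillus value as the bound, 4 with the Bacillus median plus 1, and 4 with a bound from 17 other control probe sets, an alternative added after seeing the data. The background genes numbered 3167, and between 2160 and 3992 over these and the other alternatives. With either array left out there were 2893 to 3007 background genes, 7777 to 7891 moderate genes and 1198 abundant genes, with 8 to 9 lists mostly at background and 11 mostly abundant. Taking the lowest probe set of a gene moved 64 of 590 named levels, and centring the arrays moved 0. No paired analysis was possible because no groups are compared. Promoter motifs, and protein length and gene span by band, were planned and not run, since no sequence was used here. Unknown differences in probe binding limit any order among abundant genes.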

Other observations

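Genes at background lay next to each other in the genome. In the order of the gene table, 49.3% of the measured neighbours of background genes were at background too, against 26.4% of all genes, and 16.1% of the neighbours of abundant genes were abundant, against 10% of all genes. The longest background run held 16 genes, from CG31826 to beat-Ic, with levels between 2.48 and 4.67, and another held 12 genes from Gr22e to CG15358, which includes 5 gustatory receptor genes of 1 cluster. The longest abundant runs held 4 genes, such as CG40228, RpL15, Dbp80 and eIF4B, and CG5554, ytr, eIF6 and gbb. Neighbouring family members can share probe sequence, and how much of the pattern that accounts for was not tested.

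Probe sets of a single gene often disagreed. Among 1094 genes with several probe sets, the median range was 1.79, and in 307 of them (28.1%) the lowest was at background while the highest was above it. In 12 genes the range ran from background to abundant, among them RpS7 (4.37 to 13.70) and ImpE1 (3.67 to 12.68). The probe sets of tkv ran from 5.67 to 12.58. At the ends of the control transcript Act5C, the 3′ probe sets exceeded the 5′ ones by 1.11 and 1.16 on the 2 arrays, and at GAPDH by 2.39 on each.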
